A study of Homo sapiens with 2 samples.

Results

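The genes that encode the TAL1 transcription complex and its core circuit were examined for sites of UTX and TAL1 binding. The UTX sites are from untreated Jurkat cells, a widely used human line of T cell acute lymphoblastic leukaemia, T-ALL for short. The loci were TAL1, TCF3, TCF12, LMO1, LMO2, LDB1, GATA3 and RUNX1, each taken as a fixed window of the hg19 genome build, and any peak reaching a window by 1 base or more was a member. By this rule 34 of 17396 UTX peaks and 6 of 2678 TAL1 peaks were members. The UTX peaks came from 1 chromatin immunoprecipitation sequencing (ChIP-seq) library made with a mixture of UTX antibodies. The study's other library, 1 mock immunoprecipitation with an isotype IgG from the same untreated line, was not analysed here. The TAL1 peaks were taken by the submitters from an earlier study, and its cells of origin are not named in the sources used here. Both lists hold positions only, without replicates, so depth and enrichment are unknown and no difference below has a test.

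UTX is the product of the KDM6A gene and erases methylation of histone H3 at lysine 27, a mark of repressed chromatin. TAL1 is a basic helix-loop-helix factor that binds E-box DNA as a heterodimer with an E protein such as TCF3 (E2A) or TCF12 (HEB). The LIM-only proteins LMO1 and LMO2 bridge this heterodimer to the LIM-domain binding protein LDB1, and GATA factors join the complex. In T-ALL, TAL1, GATA3 and RUNX1 are known to occupy their own and each other's regulatory regions as an interconnected circuit.

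All 8 windows held a UTX peak, and 3 of the 8 held a TAL1 peak. The UTX list is the longer of the lists, with 17396 peaks against 2678. Of all tiles of the window lengths, 18.4 to 59.1% held a UTX peak centre and 3.83 to 23.9% a TAL1 peak centre. The windows together held 5.67 UTX peaks per TAL1 peak, beside 6.5 over the whole lists. The 13 UTX and 4 TAL1 peaks at RUNX1 were the highest counts of the 8 loci. GATA3 and TCF12 held 1 TAL1 peak each, and the windows of TAL1, TCF3, LMO1, LMO2 and LDB1 held 0 TAL1 peaks but 10 UTX peaks between them. Of the 6 TAL1 peaks, 5 lay in a UTX peak (83.3%, exact binomial 95% interval 35.9 to 99.6%), beside 80.8% of the whole TAL1 list. Of the 34 UTX peaks, 5 held a TAL1 peak (14.7%, exact binomial 95% interval 4.95 to 31.1%), beside 12.1% of the whole UTX list. Both shares were close to those of the whole lists, and these intervals cover the counting of peaks only.

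**Figure D1:**
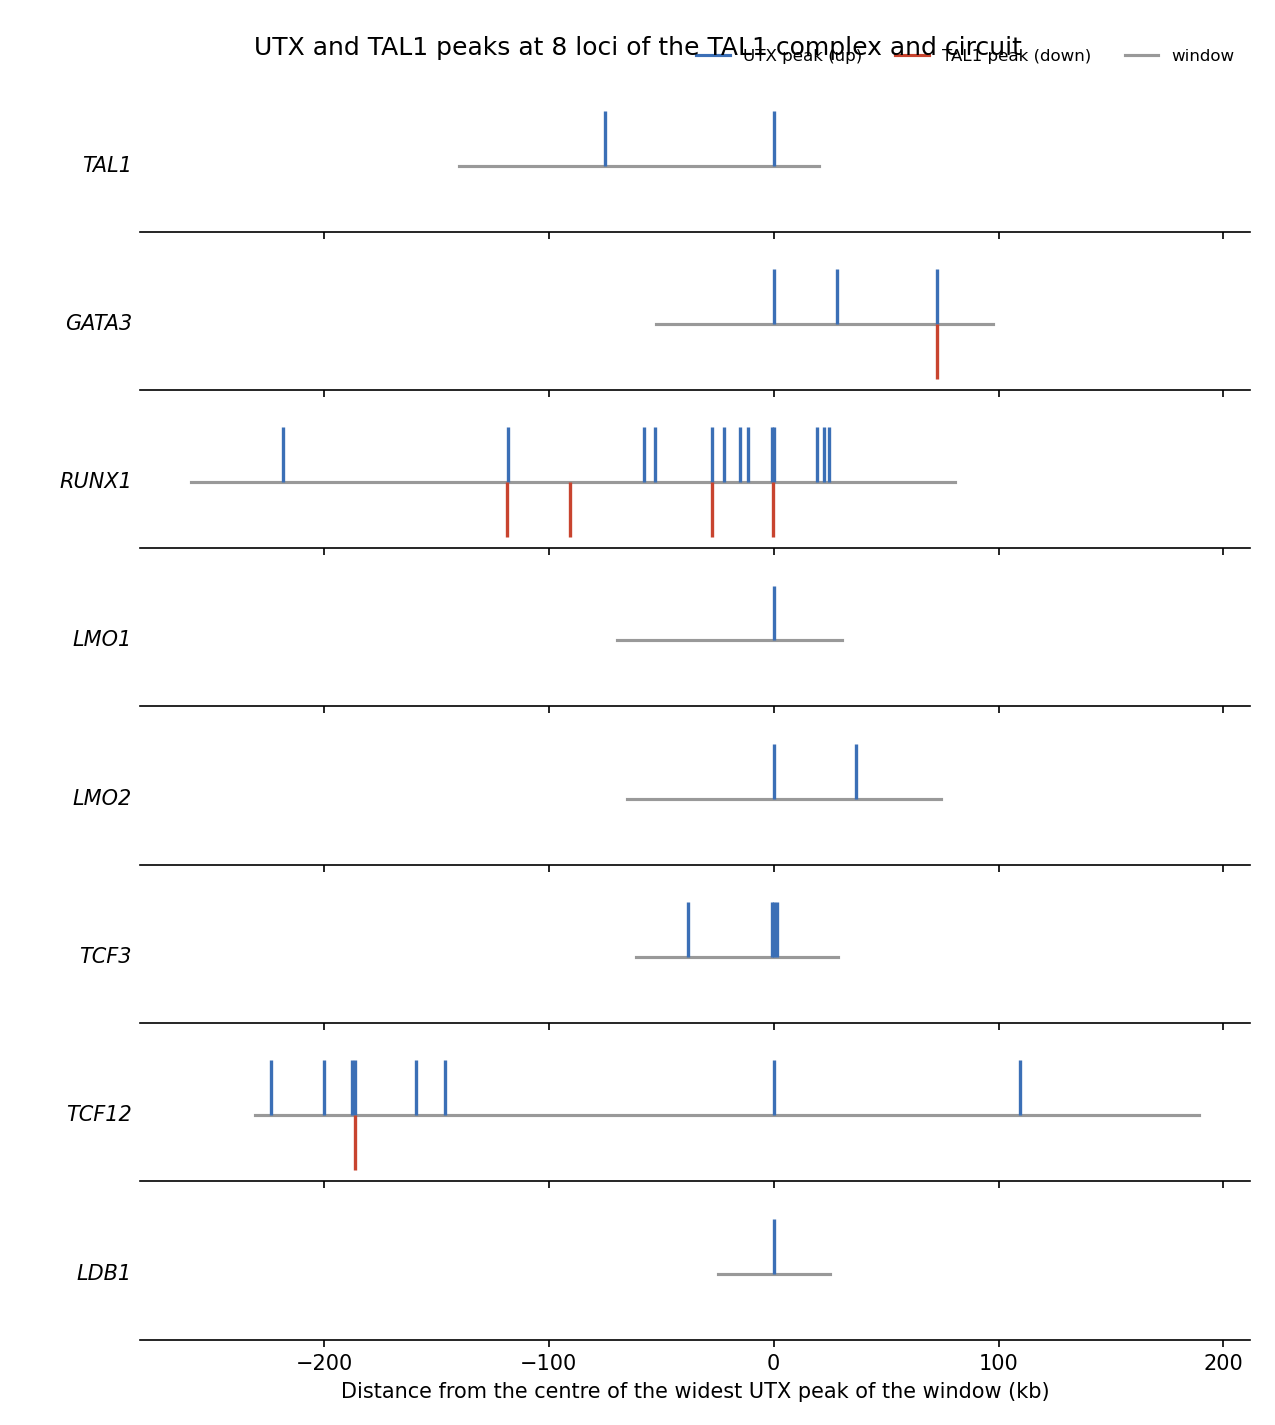
Positions of UTX peaks (blue, up) and TAL1 peaks (red, down) in the 8 windows, with the distance in kb from the centre of the widest UTX peak of each window on the x axis and the window as a grey line. RUNX1 holds 13 UTX and 4 TAL1 peaks, and 5 of the 8 windows have no TAL1 peak.

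Sequences under the peaks were not read, because a genome of the files' build was not used. RefSeq promoter windows of GRCh38.p14, each 250 bases before to 50 after a transcript start, matched 7 of the 8 genes with 17 windows; LMO2 had no entry. The position of these starts relative to the peaks was not determined, since the builds differ. Motif letters were searched on both strands: CANNTG for the E-box, AGATAA for GATA factors and TGTGGT for RUNX factors; overlapping matches were allowed. CANNTG was found in 5 of the 17 windows (29.4%, against 68.7% of all 35116 promoter windows), AGATAA in 1 (5.88%, against 10.3%) and TGTGGT in 2 (11.8%, against 13.1%). Most of the 17 windows belong to GATA3 and TCF12, and windows of the same gene are not independent. The windows with CANNTG were those of TAL1, GATA3 and TCF12. The difference from all promoter windows was not tested. The 250 bases before the start are shown for the TAL1 window that held both an E-box and GATA letters, from the locus that gives the complex its name, and for RUNX1, the locus with most TAL1 peaks, with matches in capitals. The TAL1 window shown (chr1:47232336-47232585, minus strand, GRCh38.p14) has 1 CANNTG match followed by 1 AGATAA match, read here on the opposite strand as TTATCT. It was picked for these matches. The other TAL1 window, not shown (chr1:47231716-47231965), has no CANNTG or AGATAA match and 3 TGTGGT matches. The RUNX1 window (chr21:34888700-34888949, minus strand, GRCh38.p14) has no match to the 3 motifs.
TAL1: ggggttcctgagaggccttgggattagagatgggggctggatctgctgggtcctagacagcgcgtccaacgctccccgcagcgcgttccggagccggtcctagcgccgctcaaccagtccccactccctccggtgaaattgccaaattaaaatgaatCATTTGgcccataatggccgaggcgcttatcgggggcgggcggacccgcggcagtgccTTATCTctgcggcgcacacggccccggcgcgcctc
RUNX1: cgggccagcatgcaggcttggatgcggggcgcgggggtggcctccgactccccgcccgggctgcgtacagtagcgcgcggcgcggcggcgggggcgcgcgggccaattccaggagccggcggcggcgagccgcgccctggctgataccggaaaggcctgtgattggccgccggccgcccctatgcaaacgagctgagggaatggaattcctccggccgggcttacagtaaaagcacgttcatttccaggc
A match in letters is a description of the reference sequence, and no match says only that these letters are not in this window.

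The TAL1 locus itself was called for UTX and not for TAL1. Its window of 160 kb (chr1:47640000-47800000) held 2 UTX peaks, at 47704763 to 47705312 (550 bases) and at 47779555 to 47780124 (570 bases), 74.2 kb apart. Both were wide for the list, at the 84.6 and 86.0 percentiles of UTX peak widths. The nearest TAL1 peak lay 485 kb outside the window, at 47155028 to 47155348 on chromosome 1, and overlapped a UTX peak. The cells, depth and threshold of the TAL1 list are unknown. The missing call therefore does not show that TAL1 is absent from its own locus, which it is known to occupy in T-ALL. Of all consecutive tiles of 160 kb along the chromosomes, 10.9% held a TAL1 peak centre and 38.7% a UTX peak centre. In the RefSeq annotation of GRCh38.p14, TAL1 has PDZK1IP1 and STIL as its neighbouring protein-coding genes. The windows can reach past the gene they are named for, and an hg19 annotation was not used, so whether a peak is exonic, intronic or intergenic is not stated and no peak is assigned to a gene.

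The E protein genes TCF3 and TCF12 differed in how their peaks were arranged. TCF3 had 4 UTX peaks in 90 kb (chr19:1590000-1680000), or 44.4 per Mb, the highest density of the 8 windows. They formed a tight group of 3 peaks within 2.58 kb, at 1650710 to 1650859 (150 bases), 1650998 to 1651627 (630 bases) and 1652696 to 1653291 (596 bases), and a single peak at 1613246 to 1613519 (274 bases). The first of the group is the narrowest UTX peak of the 34, at the 2.11 percentile of the list, and lies 138 bases from its wider neighbour. The density rank of TCF3 rests on 4 peaks in a short window, with these 2 counted apart. RUNX1 followed with 38.2 per Mb, from 13 peaks in 340 kb, and the order was not tested. The nearest TAL1 peak lay 1218 kb from the TCF3 window, while 6.51% of all 90 kb tiles held a TAL1 peak centre and 27.5% a UTX peak centre.

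TCF12 had 8 UTX peaks in 420 kb (chr15:57180000-57600000), or 19.0 per Mb, and 1 TAL1 peak. Of these UTX peaks, 6 lay within 78.0 kb, from 57186926 to 57264927, and the other 2 followed after gaps of 146 and 109 kb, at 57410488 to 57411091 (604 bases) and 57520204 to 57520444 (241 bases). The TAL1 peak, 114 bases at 57224529 to 57224642, lay inside the UTX peak at 57224275 to 57224828 (554 bases), the second widest of the 8. A further UTX peak of 241 bases lay 1.09 kb to the left of that site, at 57222942 to 57223182, without TAL1. Just outside the window, 14.4 kb past its right edge, a TAL1 peak of 161 bases at 57614430 to 57614590 lay in a UTX peak of 485 bases. Among all 420 kb tiles, 23.9% held a TAL1 peak centre and 59.1% a UTX peak centre.

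The LIM-only genes and LDB1, which encode the bridging proteins of the complex, held 1 or 2 UTX peaks each and 0 TAL1 peaks. LMO1 (100 kb, chr11:8220000-8320000) held 1 UTX peak of 276 bases at 8289351 to 8289626. LMO2 (140 kb, chr11:33850000-33990000) held 2, of 491 bases at 33915204 to 33915694 and of 217 bases at 33951971 to 33952187. LDB1 (50 kb, chr10:103850000-103900000) held 1, of 307 bases at 103874679 to 103874985. The LMO2 peak of 491 bases, at the 79.3 percentile of the list, was the only 1 of these 4 above the median width of all UTX peaks, 320 bases. The nearest TAL1 peak lay 952 kb from the LMO1 window, 841 kb from the LMO2 window and 495 kb from the LDB1 window. Of all tiles of these lengths, 7.18%, 9.74% and 3.83% held a TAL1 peak centre, and 29.5%, 36.0% and 18.4% a UTX peak centre. Most tiles of these lengths likewise held no TAL1 peak centre. The tiles include assembly gaps and gene-poor regions and were not matched to gene loci, so they cannot say whether the absence is unusual for a gene.

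GATA3, a zinc finger factor required for T cell development, had 3 UTX peaks in 150 kb (chr10:8050000-8200000). They were spread out, with gaps of 27.6 and 44.3 kb. The widest, 679 bases at 8102097 to 8102775, stood at the 92.0 percentile of the list and had no TAL1 peak, and neither did the peak of 366 bases at 8130404 to 8130769. The TAL1 peak, 126 bases at 8175189 to 8175314, lay in the narrowest of the 3 UTX peaks, 355 bases at 8175071 to 8175425. The TAL1 and UTX centres there were 3.5 bases apart, the closest of the shared sites in these windows. The next TAL1 peak, 99.3 kb outside the window at 7950516 to 7950727, also overlapped UTX. Of all 150 kb tiles, 10.3% held a TAL1 peak centre and 37.3% a UTX peak centre.

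RUNX1, a Runt domain factor of haematopoiesis that is part of the TAL1 circuit, carried 13 of the 34 UTX peaks and 4 of the 6 TAL1 peaks. Its window of 340 kb (chr21:36140000-36480000) thus had 38.2 UTX and 11.8 TAL1 peaks per Mb. Of all 340 kb tiles, 55.0% held a UTX peak centre and 20.5% a TAL1 peak centre; the median tile held 1 UTX peak, the 90th percentile was 6 and the fullest tile held 70. Most of the UTX peaks, 11 of 13, lay within 82.5 kb, from 36341432 to 36423957. The other 2 stood alone to the left of it, at 36180686 to 36181153 (468 bases) and 36280704 to 36281192 (489 bases). The bounds of the stretch were drawn after the positions were seen. A stretch begun at 36280704 would hold 12 UTX peaks in 143 kb.

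At RUNX1, 3 of the 4 TAL1 peaks lay inside a UTX peak. The first, 208 bases at 36280792 to 36280999, lay in the single UTX peak of 489 bases. The second, 159 bases at 36371893 to 36372051, lay in a UTX peak of 380 bases at 36371866 to 36372245, the left end of a cluster of 4 UTX peaks that spans 16.2 kb to 36388044. The third, 201 bases at 36399098 to 36399298, lay in the widest UTX peak of the 8 windows, 723 bases at 36398933 to 36399655. That UTX peak had another of 462 bases only 120 bases to its left, which ended 285 bases before the TAL1 peak and so was counted as without TAL1. The other 2 clusters at RUNX1, of 2 UTX peaks from 36341432 to 36346804 and of 3 from 36418091 to 36423957, had no TAL1 peak.

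The fourth TAL1 peak at RUNX1 was the only member TAL1 peak outside UTX. It measured 91 bases, at 36308755 to 36308845, and its width stood at the 5.97 percentile of the TAL1 list. It lay 27.6 kb from the nearest UTX peak, in the 60.2 kb between the single UTX peak and the dense stretch. For comparison, TAL1 peaks without UTX had a median width of 118 bases over the whole list, and those in UTX 157 bases. Beyond the RUNX1 window the next TAL1 peak was 1142 kb away, and the next UTX peak 119 kb, at 36599339 to 36599852.

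**Figure D2:**
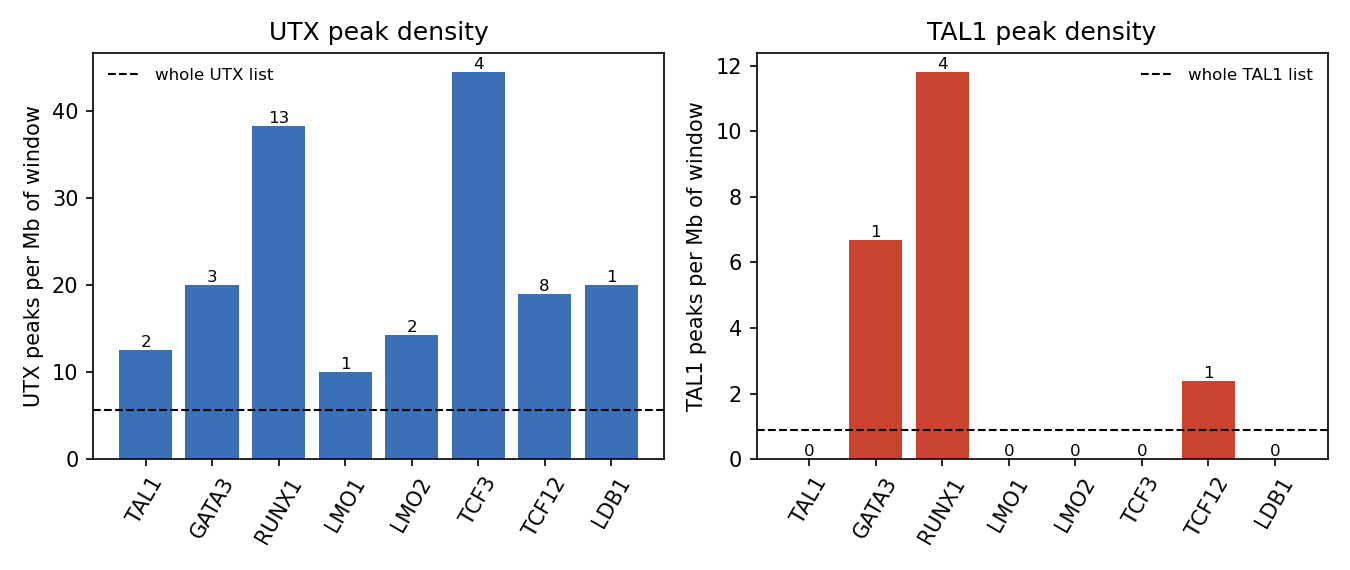
UTX peaks (left) and TAL1 peaks (right) per Mb in each window, with the number of peaks above each bar and the density of the whole list as a dashed line. Every window lies above the whole-list UTX density of 5.69 per Mb, LMO1 and LDB1 with 1 UTX peak each. GATA3, RUNX1 and TCF12 lie above the whole-list TAL1 density of 0.877 per Mb. At these window lengths 1 TAL1 peak is enough to pass that line, so it only separates windows with and without a TAL1 peak.

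Over the 8 windows together, 1.45 Mb held 23.4 UTX and 4.14 TAL1 peaks per Mb, against 5.69 and 0.877 per Mb over the chromosome spans of both lists. The spans include assembly gaps and gene-poor regions, while each window was drawn around a gene, and other gene loci were not used for comparison. RUNX1 weighed most in these values: the other 7 windows had 18.9 UTX and 1.80 TAL1 peaks per Mb. By role, the 6 genes of the DNA-binding complex (TAL1, TCF3, TCF12, LMO1, LMO2 and LDB1) held 18 UTX peaks and 1 TAL1 peak in 0.96 Mb. GATA3 and RUNX1, which form the circuit with TAL1, held 16 UTX and 5 TAL1 peaks in 0.49 Mb. TAL1 itself was counted with the complex. RUNX1 alone held 13 of these UTX peaks and 4 of these TAL1 peaks. GATA3 had 20 UTX peaks per Mb, beside 18.7 for the 6 genes of the complex. The 5 windows without TAL1 peaks still had 18.5 UTX peaks per Mb over 0.54 Mb.

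**Figure D3:**
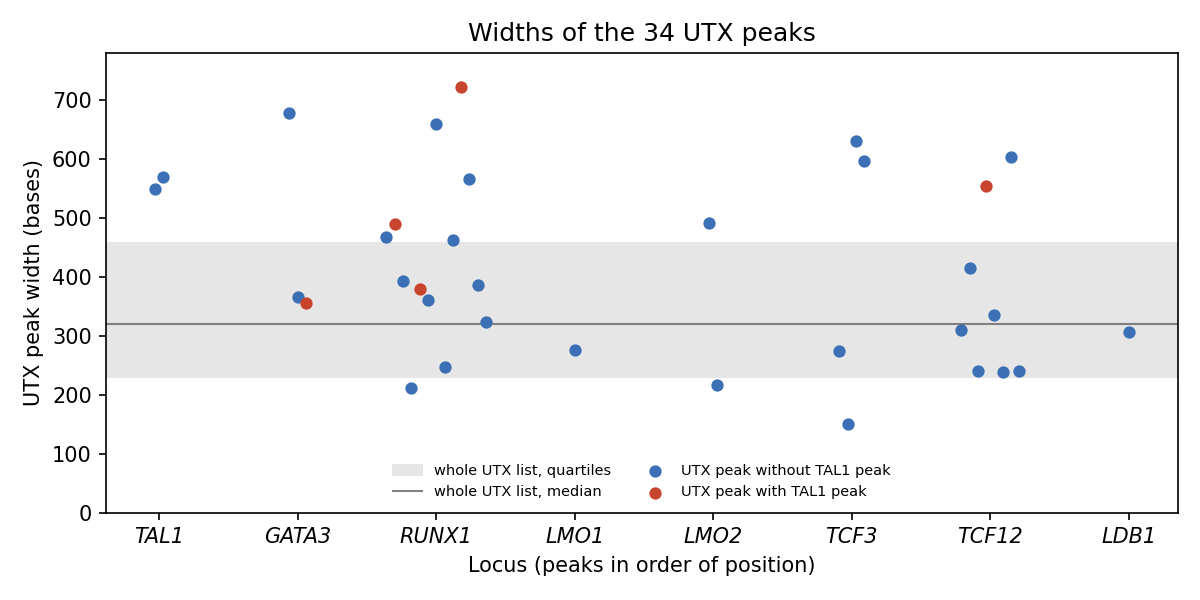
Width in bases of each of the 34 UTX peaks by locus, in order of position, with peaks that hold a TAL1 peak in red and the rest in blue. The grey band and line give the quartiles (230 and 457 bases) and median (320 bases) of the whole UTX list; 23 of the 34 peaks lie above the median, and all 5 red points do.

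The UTX peaks of these loci leaned towards the wider part of the list, a difference that was not tested. Their median was 383 bases (range 150 to 723), beside 320 bases for the whole list. Of the 34, 23 were wider than that median and 14 wider than the upper quartile of the list, 457 bases, while 3 fell below the lower quartile, 230 bases. The 5 that held TAL1 measured 355, 380, 489, 554 and 723 bases, with a median of 489, and the 29 without TAL1 ranged from 150 to 679 bases with a median of 366. The ranges of the 2 sets overlapped, and over the whole list the medians were 405 bases with TAL1 and 310 without. Among the 3 windows with a TAL1 peak, the widest UTX peak held it at RUNX1 and not at GATA3 or TCF12. The 6 TAL1 peaks, from 91 to 208 bases with a median of 142.5, were close in width to the whole TAL1 list, with a median of 147.5 bases.

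**Figure D4:**
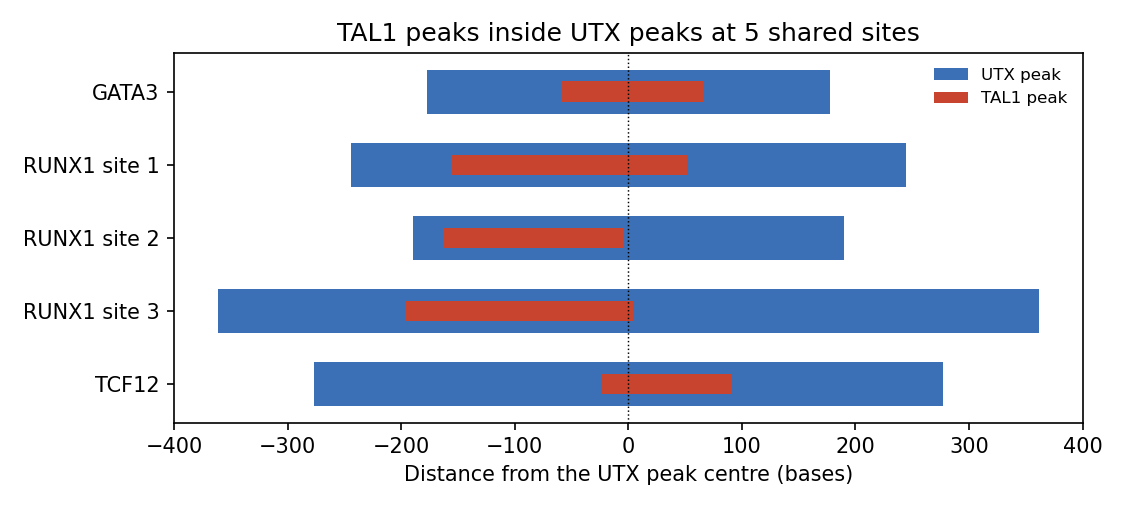
The 5 shared sites drawn to scale, with the distance in bases from the centre of the UTX peak on the x axis, the UTX peak in blue and the TAL1 peak in red. All 5 TAL1 peaks lie inside the UTX peak, and at the 3 RUNX1 sites, in order of position, the TAL1 centre is left of the UTX centre by 52.5, 83.5 and 96 bases.

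At the shared sites the TAL1 peak took up only part of the UTX peak and did not reach its edges. All 5 TAL1 peaks were entirely inside, as were 90.2% of the 2163 shared TAL1 peaks of the whole list. They covered from 20.6% of the UTX peak at TCF12 to 42.5% at the first RUNX1 site, with a median of 35.5% beside 39.2% over the list. The centres lay 3.5 bases apart at GATA3, 34 at TCF12 and 52.5, 83.5 and 96 at the RUNX1 sites, a median of 52.5 beside 44.5 over the list. The nearest edge was 27 bases away, at the second RUNX1 site, where UTX extended 194 bases past TAL1 on the other side.

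**Figure D5:**
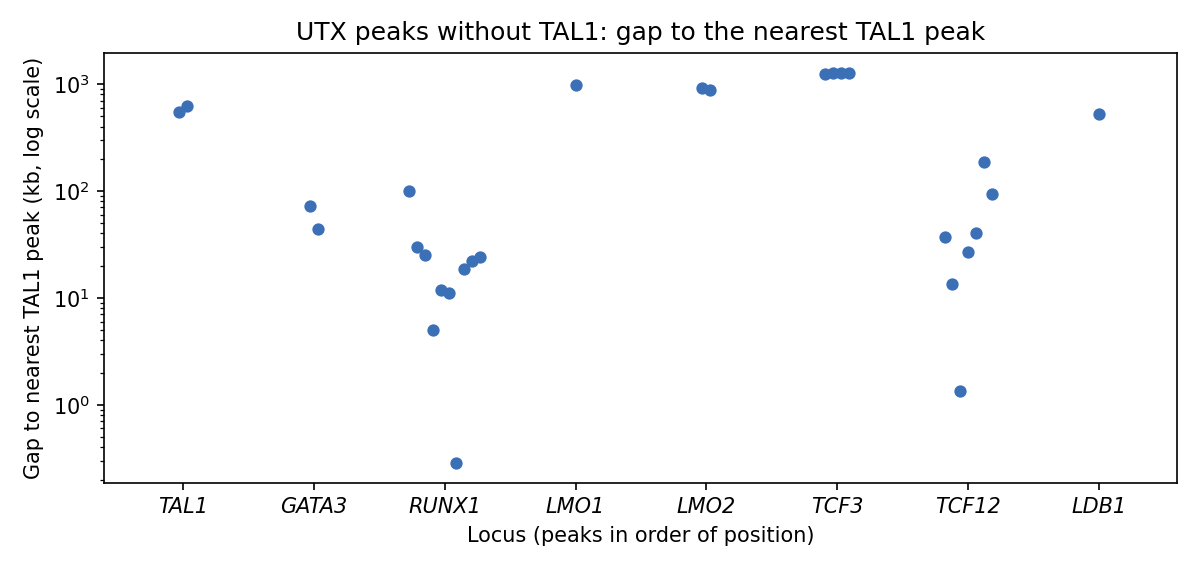
Gap in kb (log scale) from each of the 29 UTX peaks without TAL1 to the nearest TAL1 peak, by locus and in order of position. RUNX1, TCF12 and GATA3 lie between 0.285 and 186 kb, and the other 5 loci between 520 and 1281 kb.

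The distance from UTX peaks without TAL1 to the nearest TAL1 peak overlapped between RUNX1, TCF12 and GATA3, and was longer at the 5 loci whose windows hold no TAL1 peak, a contrast that the absence of TAL1 from those windows largely sets. At RUNX1 the 10 such peaks lay 0.285 to 99.6 kb from a TAL1 peak, with a median of 20.5 kb, and 9 of them within 50 kb. At TCF12 the 7 such peaks lay 1.35 to 186 kb away, with a median of 37.3 kb, and at GATA3 the pair lay 44.4 and 72.4 kb away. At TAL1 itself the distances were 549 and 624 kb, at LDB1 520 kb, at LMO2 879 and 916 kb, at LMO1 982 kb and at TCF3 1241 to 1281 kb. Over all 29 the median was 44.4 kb, and 520 kb for the 19 outside RUNX1, beside 218 kb for the 15296 UTX peaks of the whole list without TAL1. Within 50 kb of a TAL1 peak lay 15 of the 29 (51.7%) and 6 of the 19 outside RUNX1 (31.6%), beside 22.4% of those 15296. The count at RUNX1 is likewise largely set by the 4 TAL1 peaks in its window.

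Clusters of UTX peaks were found at RUNX1, TCF3 and TCF12 and at none of the other 5 loci. With UTX peaks joined across gaps of up to 10 kb, 16 of the 34 (47.1%) fell into 6 clusters and 18 stood alone; over the whole list 40.9% of UTX peaks had another within 10 kb. Without RUNX1 the share was 5 of 21 (23.8%), below that of the list, so the direction rested on this 1 locus. RUNX1 had 4 of the clusters, with 11 peaks, and TCF3 and TCF12 had 1 each, with 3 and 2 peaks. The UTX peaks of TAL1, GATA3, LMO1, LMO2 and LDB1 were all single. Of the 5 UTX peaks with TAL1, 3 lay in clusters, 2 at RUNX1 and 1 at TCF12, and the other 2, at GATA3 and RUNX1, were single.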

How the data were processed

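The authors deposited 2 peak lists of 3 columns (chromosome, start counted from 0, end), without scores or counts. Per the submitters' processing notes, the tools were the aligner BWA (0.6.2), SAMtools (0.1.18) and the peak caller MACS2 (2.0.10), on hg19. Thresholds, filters, the role of the mock library and the calling of the TAL1 list were not given in the sources used here. Its build was taken as hg19.

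Both lists were used whole and printed counted from 1. Peaks were shared at an overlap of at least 1 base, checked with bedtools 2.31.1. Other steps used pandas 2.3.3, numpy 2.4.6, scipy 1.17.1 and matplotlib 3.10.9 under Python 3.11.15, and the overlap rules were checked against direct counts on simulated lists. Percentiles are ranks of width in the whole list. Tiles are consecutive, counted from each chromosome's first base, and hold a peak by its centre; assembly gaps were kept. Intervals are 95% exact (Clopper-Pearson).

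Each TAL1 peak, the UTX peak it overlaps or lies nearest to, each window's widest UTX peak and its largest cluster (peaks no more than 10 kb apart) were to be named; other UTX peaks were added after their positions were seen. So were the bounds of the stretches of 82.5 kb at RUNX1 and 78.0 kb at TCF12, which end at wide gaps between UTX peaks. The loci, lists and rules were chosen with earlier results of these data known.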

Additional observations from a re-analysis of the deposited data

How the results depend on the processing

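Of 38 values recomputed under other settings, 35 stayed within the interval of the share or within 1.5 times the count. This count does not measure stability, because the interval of the TAL1 share is wide (35.9 to 99.6%) and some settings could not move it. Leaving out a locus without TAL1 peaks cannot change that share. Neither can asking for 50% of the shorter peak, since the 5 shared TAL1 peaks lie entirely inside UTX peaks. The share of TAL1 peaks in UTX, 83.3%, became 100% with the wider 50% of the TAL1 peaks, which left 3 TAL1 peaks in the windows in place of 6 and dropped the peak of 91 bases at RUNX1. It was also 100% (2 of 2) without the RUNX1 locus, which holds that peak. It was 80.0% without GATA3 or without TCF12, and 85.7% with windows widened by 50 kb on each side, which added the TAL1 peak beyond TCF12. The share of UTX peaks with TAL1 ranged from 8.82% with the wider 50% of the TAL1 peaks to 21.7% with the wider 50% of the UTX peaks. It was 9.52% without RUNX1. The windows held 40 UTX peaks when widened and 33 when narrowed by 20 kb on each side. No paired analysis was possible because each list comes without replicates. Width stands in for a score, so a stricter enrichment threshold could not be tried, and the unknown depth of both lists limits what an absent peak shows.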
